A study of Mus musculus with 14 samples.

Results

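The 38 genes described here are markers of the liver's sinusoidal endothelium and of vascular endothelium elsewhere, taken by symbol from a table of 54532 genes. They were split into 12 sinusoidal genes, 6 genes of capillaries and larger vessels, and 20 genes shared by most endothelial cells, so that a loss of sinusoidal character could be read beside a gain of capillary character. All 38 were found, and all 38 were among the 17874 genes that passed the filter on low counts. The wild-type livers came from C57BL/6J mice, an inbred laboratory strain, and the source labels of the knockout samples name the genotype without a strain. All mice were 52 weeks of age. Abcb11 encodes the bile salt export pump of hepatocytes, and the Abcb11-/- animals lack its working form. The 14 libraries comprised tumour tissue of Abcb11-/- females (n = 3), non-tumour liver of Abcb11-/- females (n = 3), liver of wild-type females (n = 2, numbered 2 and 3), liver of Abcb11-/- males (n = 3) and liver of wild-type males (n = 3). The design text gives 3 mice per group, a wild-type female 1 is not analysed here, and the labels do not say whether a tumour and a non-tumour sample of equal number came from 1 animal. They also do not say whether the liver of knockout males held tumours.

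The liver sinusoid is lined by a fenestrated endothelium without a continuous basement membrane, which takes up waste molecules from the blood through scavenger receptors such as stabilins and lectins. These cells also send signals to hepatocytes: Wnt ligands and R-spondin maintain the zonation of hepatocytes, and BMP ligands control their hepcidin output. In chronic liver disease and in liver tumours the sinusoidal lining can lose its fenestrae and scavenger receptors and gain proteins of continuous capillaries, such as CD34 and von Willebrand factor, a change called capillarization.

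Library totals ran from 14745140 to 19480538 counts, and Abcb11 was lower in every knockout library (17.9 to 104 CPM) than in every wild-type library (270.2 to 489 CPM). Levels are TMM-scaled CPM from edgeR (a gene's counts relative to the library's total), always listed in the order of the library numbers. The wild-type males stood apart in having counts for 15308 to 17520 genes, against 18743 to 22414 in all other libraries. Mitochondrially encoded genes held 15.7 to 42.2% of the counts. Whether either feature moved the endothelial genes was not tested. The fewest counts of any endothelial gene in any library were 3, for Wnt2 in tumour 1, so each gene was detected in every library. Reads in exons that overlap another gene on the same strand cannot be told apart by strand, as for Ramp2 with Vps25 and part of Egfl7 with Gm20532. For overlaps on opposite strands they cannot be told apart here either, because the strand setting of the authors' counting is not given in the sources used here. In GENCODE M21 overlaps of either kind touched over 10% of the exon bases of Ramp2 (33.4%), Nos3 (32.3%), Rspo3 (13.1%) and Egfl7 (12.8%).

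Promoter windows of 300 bases, 250 before to 50 after the start of transcription, were found in RefSeq (GRCm38.p6) for 21 of the 38 genes, with 25 windows in all. The windows below belong to the 4 genes with a window that were called in at least 3 of the 6 comparisons reported here. Capitals mark a pair of motifs, each on either strand: AGGAAG, the core bound by ETS factors such as Erg, and the GC box GGGCGG, bound by Sp factors. Stab1 encodes stabilin-1, a scavenger receptor (chr14:31168592-31168891, minus strand). Klf2 encodes a transcription factor that responds to blood flow (chr8:72318812-72319111, plus strand). Egfl7 encodes a secreted endothelial matrix protein (chr2:26580833-26581132, plus strand, of its 3 windows the one nearest the gene start in the deposited data). Dll4 encodes a Notch ligand (chr2:119325534-119325833, plus strand).
Stab1: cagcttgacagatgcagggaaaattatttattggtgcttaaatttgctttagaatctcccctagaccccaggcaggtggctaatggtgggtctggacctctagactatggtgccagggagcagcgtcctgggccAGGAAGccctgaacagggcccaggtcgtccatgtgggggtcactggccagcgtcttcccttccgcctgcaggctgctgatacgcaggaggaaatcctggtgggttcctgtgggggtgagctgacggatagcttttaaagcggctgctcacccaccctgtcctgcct
Klf2: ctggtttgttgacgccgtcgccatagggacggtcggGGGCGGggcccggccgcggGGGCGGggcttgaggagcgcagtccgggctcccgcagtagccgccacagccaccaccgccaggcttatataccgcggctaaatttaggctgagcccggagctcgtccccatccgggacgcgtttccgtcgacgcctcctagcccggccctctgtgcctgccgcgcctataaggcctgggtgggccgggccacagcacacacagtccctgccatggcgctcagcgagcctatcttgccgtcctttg
Egfl7: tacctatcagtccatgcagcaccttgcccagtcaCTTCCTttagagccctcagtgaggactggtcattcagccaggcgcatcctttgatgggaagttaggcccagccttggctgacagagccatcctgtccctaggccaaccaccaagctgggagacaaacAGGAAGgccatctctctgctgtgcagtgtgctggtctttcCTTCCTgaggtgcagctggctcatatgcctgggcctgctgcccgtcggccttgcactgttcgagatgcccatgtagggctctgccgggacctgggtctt
Dll4: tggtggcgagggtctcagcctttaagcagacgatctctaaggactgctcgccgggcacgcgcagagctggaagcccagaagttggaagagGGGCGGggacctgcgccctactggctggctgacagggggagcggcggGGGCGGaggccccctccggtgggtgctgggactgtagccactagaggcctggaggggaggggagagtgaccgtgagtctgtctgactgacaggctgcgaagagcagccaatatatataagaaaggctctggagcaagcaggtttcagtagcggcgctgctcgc
The Egfl7 window held 3 ETS cores and the Stab1 window 1, while Klf2 and Dll4 held 2 GC boxes each. The printed Egfl7 window held 0 GC boxes, but another window of that gene held 4. ETS cores stood in 13 of the 25 windows (52.0%), against 35.4% of the 32851 windows of all genes. GC boxes stood in 44.0% of the endothelial windows and 35.7% of all windows. The motif AGATAA of GATA factors, searched on both strands like the others, stood in 8.0% of the endothelial windows and 11.2% of all windows. For CCACACCC, bound by KLF factors such as Klf2, the shares were 4.0% of the endothelial windows and 3.6% of all windows. The TATA box TATAAA stood in 12.0% of the endothelial windows and 13.6% of all windows. A match of letters is a description of the window and was not tested.

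Per kilobase of gene length, the highest of the 38 genes was Eng, a co-receptor for TGF-beta and BMP ligands, followed by Plvap, which forms the diaphragms of fenestrae, Egfl7, Stab1 and Klf2. At the low end were Wnt9b, Emcn and Vwf, at means over the groups of 0.280, 0.377 and 0.483 CPM per kilobase, against 25.1 CPM per kilobase for Eng. Wild-type males had the highest group mean CPM for 22 of the 38 genes, among them 10 of the 12 sinusoidal genes. Tumours had the highest mean for 15, among them Vwf, Cd34, Emcn and Gpihbp1 of the 6 capillary and large-vessel genes. The remaining gene, Gata4, was highest in wild-type females. No gene had its highest mean in knockout males or in non-tumour liver of knockout females.

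**Figure D1:**
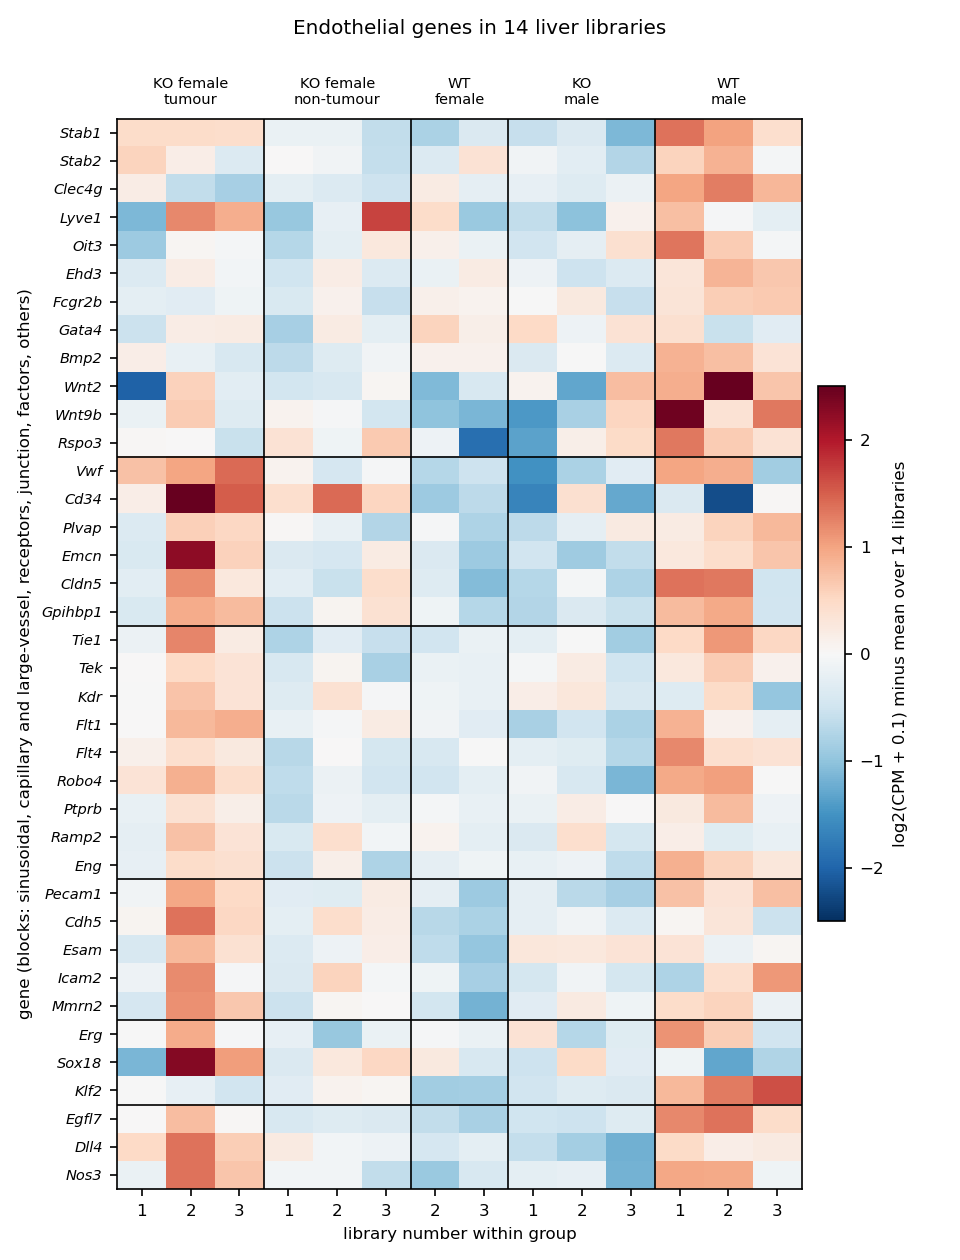
Level of each of the 38 endothelial genes (rows) in the 14 libraries (columns, by group and library number), as log2(CPM + 0.1) minus the gene's mean over the libraries; red is above and blue below that mean. Tumour 2 is red in most capillary and pan-endothelial rows, and wild-type males are red in most sinusoidal rows.

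In females, the tumours carried more mRNA of several endothelial genes than wild-type liver. Of the 38 genes 6 rose in tumours relative to wild-type females, namely Stab1, Vwf, Cdh5, Esam, Egfl7 and Dll4, and 0 fell (edgeR quasi-likelihood test, adjusted over all genes). That is 15.8% of the genes higher, where 3.94% of all 17874 genes were called higher, 5.67% lower and 9.61% in either direction. Tumours lay wholly above wild-type females for 20 of the 38 genes and wholly below for 1, Fcgr2b, where 24.8% of all genes lay wholly above and 27.6% wholly below. The median log2 fold change was 1.45 for the 6 capillary and large-vessel genes, 0.90 for the 20 pan-endothelial genes and 0.01 for the 12 sinusoidal genes, against 0.03 for all genes. The summed level of the 12 sinusoidal genes was 294 to 322 CPM in tumours and 235 to 272 CPM in wild-type females, without overlap. Stab1 was the largest part of that sum, with means of 141.3 CPM in tumours and 69.5 CPM in wild-type females. The mean log2 CPM of the 12 genes, which weighs them equally, overlapped, at 3.02 to 3.54 in tumours and 3.00 to 3.18 in wild-type females. In bulk tissue, a different number of endothelial cells and a different amount of RNA per endothelial cell cannot be told apart. Leaving out tumour 2, or either of the wild-type females, left 0 calls among the 38, and leaving out tumour 3 left 2, while the 6 fold changes stayed above 0, the lowest being 0.76 (Egfl7 without tumour 2). With 1 wild-type female left, that library is assumed to vary like the other groups. Calls over all genes fell as well, being 799 without tumour 2, 905 without tumour 3, 701 without wild-type female 2 and 157 when wild-type female 3 was left out, against 1718 with all libraries. DESeq2 called 11 of the 38 higher, where it called 1445 of 17874 genes higher. Limma-voom called 14 of the 38 higher, where it called 1999 of 17874 genes higher. With the replicate number as a block edgeR called 3, Cdh5, Esam and Egfl7, and lost Stab1 (0.92, edgeR adjusted p = 0.0772), Vwf (1.72, edgeR adjusted p = 0.0732) and Dll4 (1.15, edgeR adjusted p = 0.0604). Both comparisons with wild-type females share the same 2 wild-type libraries.

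Among sinusoidal receptors in the female groups, Stab1 (ENSMUSG00000042286) had 142, 142 and 140.4 CPM in tumours, 91.7, 91.1 and 66.8 in non-tumour liver, and 59.1 and 79.9 in wild-type females. All tumours lay above all other female libraries, and the log2 fold change of tumours over wild type was 1.02 ± 0.31 (edgeR adjusted p = 0.04998), a call lost with RLE or upper-quartile scaling, with the replicate block and with any of the 5 libraries left out, at fold changes of 0.82 to 1.28 in the last case. Its relative Stab2, the main hyaluronan scavenger receptor of the sinusoid, had 75.2, 56.9 and 40.4 CPM in tumours, 51.4, 48 and 33.6 in non-tumour liver, and 40.2 and 65.96 in wild-type females. Clec4g, a sinusoidal C-type lectin, had 21.4, 12.2 and 10.6 CPM in tumours, 15.8, 14.8 and 13.2 in non-tumour liver, and 21.7 and 16.05 in wild-type females. Neither Stab2 nor Clec4g separated tumours from wild type, with log2 fold changes of 0.11 ± 0.34 (edgeR adjusted p = 0.866) and −0.36 ± 0.28 (edgeR adjusted p = 0.441). Lyve1, a hyaluronan receptor shared by sinusoids and lymphatic vessels, had 1.42, 7.55 and 6.14 CPM in tumours, 1.63, 2.79 and 10.6 in non-tumour liver, and 4.49 and 1.64 in wild-type females. Fcgr2b, an Fc receptor that clears immune complexes and is also made by B cells and macrophages, had 32.2, 31.6 and 35.6 CPM in tumours, 29.2, 41.2 and 25.6 in non-tumour liver, and 41.8 and 40.7 in wild-type females. Lyve1 spanned a 7.475-fold range over all 14 libraries without following the groups, and Fcgr2b lay lower in all tumours than in wild type without passing the test, with a log2 fold change of −0.32 ± 0.25 (edgeR adjusted p = 0.458). Oit3, a secreted marker of the sinusoid, had 4.58, 8.89 and 8.32 CPM in tumours, 5.19, 7.298 and 10.4 in non-tumour liver, and 9.42 and 7.66 in wild-type females. Ehd3, a membrane-trafficking protein, had 21.6, 31.4 and 26.3 CPM in tumours, 19.5, 31.1 and 21.5 in non-tumour liver, and 24.6 and 31.8 in wild-type females. Both overlapped between tumour and wild type.

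The sinusoidal transcription factor Gata4, which holds the endothelium in its sinusoidal state, had 9.52, 15.8 and 16.02 CPM in tumours, 7.76, 15.96 and 11.6 in non-tumour liver, and 20.3 and 15.3 in wild-type females. The BMP ligand Bmp2, which drives hepcidin in hepatocytes, had 11.3, 8.84 and 7.605 CPM in tumours, 6.401, 8.07 and 9.496 in non-tumour liver, and 10.8 and 10.9 in wild-type females. Both had their lowest female mean in non-tumour liver, with log2 fold changes of non-tumour over wild type of −0.59 ± 0.36 (edgeR adjusted p = 0.367) and −0.45 ± 0.28 (edgeR adjusted p = 0.391). The pericentral Wnt ligand Wnt2 had 0.186, 1.62 and 0.862 CPM in tumours, 0.734, 0.771 and 1.08 in non-tumour liver, and 0.436 and 0.771 in wild-type females. Wnt9b, the second pericentral endothelial Wnt ligand, had 0.866, 1.58 and 0.7605 CPM in tumours, 1.05, 0.949 and 0.678 in non-tumour liver, and 0.436 and 0.386 in wild-type females. Rspo3, which enhances Wnt signalling, had 2.102, 2.06 and 1.37 CPM in tumours, 2.68, 1.899 and 3.301 in non-tumour liver, and 1.87 and 0.482 in wild-type females. Wnt9b was higher in all knockout female libraries than in both wild-type females, by 1.37 ± 0.89 in tumours (edgeR adjusted p = 0.344) and 1.10 ± 0.88 in non-tumour liver (edgeR adjusted p = 0.507), at levels near 1 CPM. Of the 12 sinusoidal genes, Stab1 was the only one called in tumours against wild-type females, and 6 had a fitted value above and 6 below 0.

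All 6 capillary and large-vessel genes had fitted values above 0 in tumours relative to wild type, from 0.66 to 2.55, but only Vwf passed. Vwf, the platelet-binding glycoprotein of large vessels, which platelets also carry, had 11.3, 13.4 and 18.2 CPM in tumours, 7.19, 4.98 and 6.602 in non-tumour liver, and 4.05 and 4.67 in wild-type females. Its log2 fold change of tumours over wild type was 1.71 ± 0.51 (edgeR adjusted p = 0.0471), and tumours, non-tumour liver and wild type did not overlap. Cd34, a sialomucin of continuous capillaries, had 3.401, 18.1 and 8.77 CPM in tumours, 4.04, 8.19 and 4.39 in non-tumour liver, and 1.56 and 1.88 in wild-type females. Emcn, endomucin, a surface mucin of capillaries and veins, had 1.298, 8.46 and 2.59 CPM in tumours, 1.31, 1.25 and 1.99 in non-tumour liver, and 1.31 and 0.867 in wild-type females. Tumour 2 held the highest value of both by a wide margin, and the fold changes of 2.55 ± 0.84 (edgeR adjusted p = 0.0673) and 1.92 ± 0.75 (edgeR adjusted p = 0.115) did not pass. Plvap had 24.98, 47.9 and 45.7 CPM in tumours, 32.5, 28.1 and 19.2 in non-tumour liver, and 31.4 and 18.7 in wild-type females. Cldn5, a tight junction protein, had 5.44, 14.8 and 7.86 CPM in tumours, 5.404, 4.39 and 8.91 in non-tumour liver, and 5.18 and 3.04 in wild-type females. Gpihbp1, which carries lipoprotein lipase across capillary endothelium, had 10.1, 25 and 22.8 CPM in tumours, 9.02, 13.7 and 17.1 in non-tumour liver, and 12.2 and 7.95 in wild-type females. For Plvap and Gpihbp1 tumour 1 lay within the range of the other female libraries, while tumours 2 and 3 lay above all of them. Without tumour 2 the median of the 6 genes was 0.81, and it was 0.82 with both knockout female libraries of number 2 left out.

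**Figure D2:**
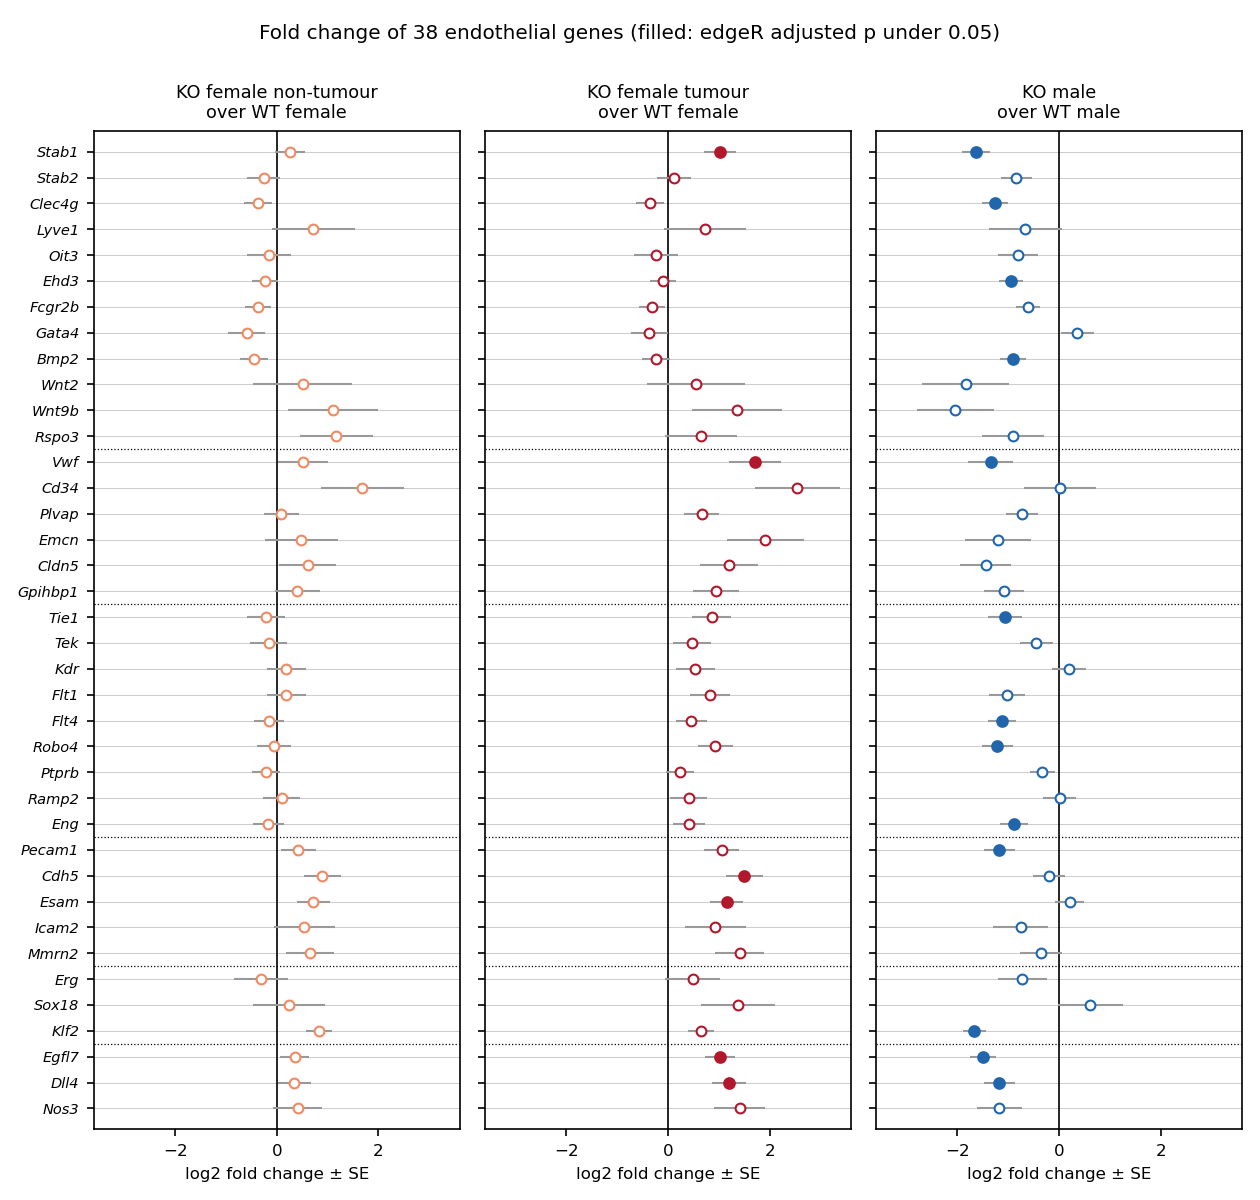
Log2 fold change ± SE of each endothelial gene in edgeR's fit, for non-tumour liver of knockout females over wild-type females (left), tumours over wild-type females (middle) and knockout over wild-type males (right); filled points have an adjusted p under 0.05. The 6 filled points in the middle panel lie right of 0, the 13 filled points in the right panel lie left of 0, and the left panel has none.

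Among the 9 pan-endothelial receptors, all had fitted values above 0 in tumours relative to wild-type females, with a median of 0.48, and 0 passed edgeR's test (2 at an unadjusted p under 0.05). Robo4, a receptor that stabilises vessels, had 33.6, 48.8 and 35.7 CPM in tumours, 17, 23.9 and 18.9 in non-tumour liver, and 19.02 and 22.3 in wild-type females. Tie1, a partner of the angiopoietin receptor Tek, had 13.1, 33.9 and 16.8 CPM in tumours, 8.5, 11.99 and 9.77 in non-tumour liver, and 10.4 and 12.96 in wild-type females. For both, every tumour lay above every non-tumour and wild-type female library, with tumour values 0.93 ± 0.34 (edgeR adjusted p = 0.0951) and 0.86 ± 0.38 (edgeR adjusted p = 0.161) above wild type. Kdr, the main VEGF receptor, had 13.7, 22.9 and 17.6 CPM in tumours, 11.1, 17.98 and 13.6 in non-tumour liver, and 12.8 and 12.2 in wild-type females. Its tumour fold change of 0.54 ± 0.38 did not pass (edgeR adjusted p = 0.394). Flt4, the receptor for VEGF-C, had 19.04, 23.4 and 20.7 CPM in tumours, 10.7, 17.6 and 12.8 in non-tumour liver, and 13.2 and 17.4 in wild-type females. Eng had 84.8, 135 and 129 CPM in tumours, 67.6, 108 and 57.4 in non-tumour liver, and 83.5 and 91.1 in wild-type females. Tumours were above non-tumour liver in every library for Flt4 but not for Eng, and the tumour values over wild type were 0.46 ± 0.30 for Flt4 and 0.41 ± 0.31 for Eng. Flt1, a VEGF receptor that acts largely as a decoy, Tek, the angiopoietin receptor, Ptprb, a phosphatase that restrains Tek, and Ramp2, a subunit of the adrenomedullin receptor, had fitted values between 0.25 and 0.82.

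Of the 5 junction and surface genes, Cdh5 and Esam rose in tumours. Cdh5, VE-cadherin of the adherens junction, had 14.2, 34.8 and 19.4 CPM in tumours, 11.3, 18.3 and 15.2 in non-tumour liver, and 8.29 and 7.76 in wild-type females. Esam, a tight-junction adhesion molecule also found on platelets, had 9.58, 22.4 and 16.7 CPM in tumours, 10.1, 11.6 and 14.2 in non-tumour liver, and 8.11 and 6.46 in wild-type females. All knockout female libraries lay above both wild-type females for these genes, with log2 fold changes of tumours over wild type of 1.51 ± 0.37 (edgeR adjusted p = 0.0219) and 1.16 ± 0.33 (edgeR adjusted p = 0.0382). Pecam1, a junction protein also made by platelets and leukocytes, had 12.5, 26 and 18.7 CPM in tumours, 10.9, 10.7 and 15.4 in non-tumour liver, and 11.4 and 7.04 in wild-type females. Its value of 1.06 ± 0.34 fell short of the threshold (edgeR adjusted p = 0.0638). Mmrn2, a matrix partner of CD93, and Icam2, a leukocyte ligand, had fitted values of 1.41 and 0.94 and did not pass.

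Among the transcription factors, Erg, an ETS factor of endothelial identity, and Sox18, a factor of vessel and lymphatic development, did not pass in tumours, with Sox18 at 1.86, 20.98 and 8.82 CPM in tumours, 3.25, 5.103 and 6.104 in non-tumour liver, and 4.99 and 3.18 in wild-type females. Klf2 (ENSMUSG00000055148) had 16.6, 14.6 and 12.1 CPM in tumours, 13.8, 17.9 and 17.5 in non-tumour liver, and 9.17 and 9.3 in wild-type females. All 6 knockout female libraries were above both wild-type females for Klf2, by 0.83 ± 0.26 in non-tumour liver (edgeR adjusted p = 0.0778) and 0.64 ± 0.26 in tumours (edgeR adjusted p = 0.121). Egfl7 (ENSMUSG00000026921) had 48.04, 81.6 and 48.5 CPM in tumours, 36.04, 38.3 and 37.4 in non-tumour liver, and 31.2 and 27.2 in wild-type females. Dll4 (ENSMUSG00000027314) had 10.8, 19.6 and 11.7 CPM in tumours, 8.87, 7.24 and 6.96 in non-tumour liver, and 5.68 and 6.46 in wild-type females. The libraries of the female groups did not overlap for Egfl7 or Dll4, tumours being highest and wild type lowest, and the tumour fold changes were 1.02 ± 0.29 (edgeR adjusted p = 0.0393) and 1.21 ± 0.33 (edgeR adjusted p = 0.0359). Nos3, endothelial nitric oxide synthase, had 5.32, 15.6 and 9.68 CPM in tumours, 5.72, 5.696 and 3.89 in non-tumour liver, and 3.12 and 4.53 in wild-type females. Its tumour value of 1.41 ± 0.50 did not pass (edgeR adjusted p = 0.0859).

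Markers of other cells differed from wild-type females in both knockout female groups. There 3.94% of all genes were called higher in tumours and 1.9% in non-tumour liver. Of 5 cholangiocyte markers 3 rose in tumours (Krt19, Krt7 and Spp1), with a summed level of 658 to 1341 CPM in tumours, 415 to 558 CPM in non-tumour liver and 132 to 277 CPM in wild-type females. In non-tumour liver 0 of them were called, but all 5 lay wholly above wild type, as did 23.2% of all genes. Of 7 macrophage markers 1 rose in tumours, Csf1r, and 2 in non-tumour liver. Their sums were 112 to 292 CPM in tumours, 155 to 357 CPM in non-tumour liver and 89.0 to 96.6 CPM in wild-type females. For 6 of the 7 the fitted value was lower in tumours than in non-tumour liver. Of 4 smooth muscle markers, 3 of them tested, 0 were called, but tumour 2 held a sum of 163 CPM, with 86.0 CPM of Acta2 and 62.1 CPM of Myh11, while the lowest tumour held 8.04 CPM, wild-type females held 5.11 to 7.67 CPM, and Cnn1 had no counts in tumours 1 and 3. Platelet markers summed to 7.10 to 17.8 CPM in tumours and 12.2 to 13.3 CPM in wild-type females. Hepatocyte markers summed to 44580 to 78780 CPM in tumours, 43710 to 78700 CPM in non-tumour liver and 43350 to 44700 CPM in wild-type females. Of these 6 markers 0 were called in tumours or in non-tumour liver. Their mean log2 CPM was 11.97, 10.51 and 11.48 in tumours 1, 2 and 3, and 11.28 and 11.46 in wild-type females. The part of these cells in the endothelial values was not tested.

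In non-tumour liver of knockout females 0 of the 38 genes passed against wild-type females in edgeR, where 4.16% of all genes were called in either direction, 1.9% higher and 2.26% lower. Of the 38 genes 9 lay wholly above wild type and 3 wholly below (Clec4g, Bmp2 and Erg), where 23.2% of all genes lay wholly above and 26.5% wholly below. At an unadjusted p under 0.05 there were 3, Cdh5, Esam and Klf2, and 21.2% of all genes stood there. DESeq2 and limma-voom each called 1, Klf2, and edgeR fitted to the compared groups alone called 1, Cd34. Of all genes, DESeq2 called 10.9%, limma-voom 19% and the compared groups alone 6.48% in either direction. The median log2 fold change was −0.20 for sinusoidal, 0.50 for capillary and large-vessel and 0.22 for pan-endothelial genes, and 0.00 for all genes. The sinusoidal median changed its sign without non-tumour 1 (0.02) or without wild-type female 3 (0.09). The capillary median became 0.78 when wild-type female 2 was left out, 0.28 when wild-type female 3 was and 0.31 when non-tumour 3 was. Cd34 had the largest fitted value of the 38, 1.68 ± 0.81 (edgeR adjusted p = 0.249), with all non-tumour libraries above both wild-type females.

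Between tumours and non-tumour liver of the knockout females edgeR called 0 of the 38 genes and 0% of all genes. At an unadjusted p under 0.05 there were 9 of the 38, where 6.81% of all genes stood. DESeq2 and limma-voom called 0 of the 38, with 29 and 0 calls over all 17874 genes. Without a filter on low counts edgeR called 2, Tie1 and Robo4. That fit called 338 of 28842 genes (1.17%), 158 of them higher. The fitted values were above 0 for 35 of the 38, with medians of 0.73 for capillary and large-vessel, 0.63 for pan-endothelial and 0.10 for sinusoidal genes, and −0.01 for all genes. Libraries of tumours lay wholly above those of non-tumour liver for 8 genes (Stab1, Vwf, Tie1, Flt4, Robo4, Erg, Egfl7 and Dll4) and wholly below for 0, where 6.38% of all genes lay wholly above and 7.64% wholly below. These values share the tumour libraries with the comparison to wild type.

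The tumour and non-tumour libraries of equal number can also be set side by side. The tumour was higher in numbers 1, 2 and 3 alike for 21 of the 38 genes, and lower in all of them for 0, where 17.2% of all genes were higher and 19.6% lower in every number. Robo4 differed by 0.98, 1.03 and 0.92 on the log2 scale in numbers 1, 2 and 3, and Stab1 by 0.63, 0.64 and 1.07. Vwf differed by 0.65, 1.43 and 1.46. The median of the 6 capillary and large-vessel genes was −0.003 in number 1, 1.29 in number 2 and 0.71 in number 3, and that of the 20 pan-endothelial genes 0.27, 0.94 and 0.47. The sinusoidal medians were 0.15, 0.19 and −0.08. Tumour 2 was the highest of the 8 female libraries for 26 of the 38 genes, and tumour 1 was close to its non-tumour counterpart in the capillary list.

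**Figure D3:**
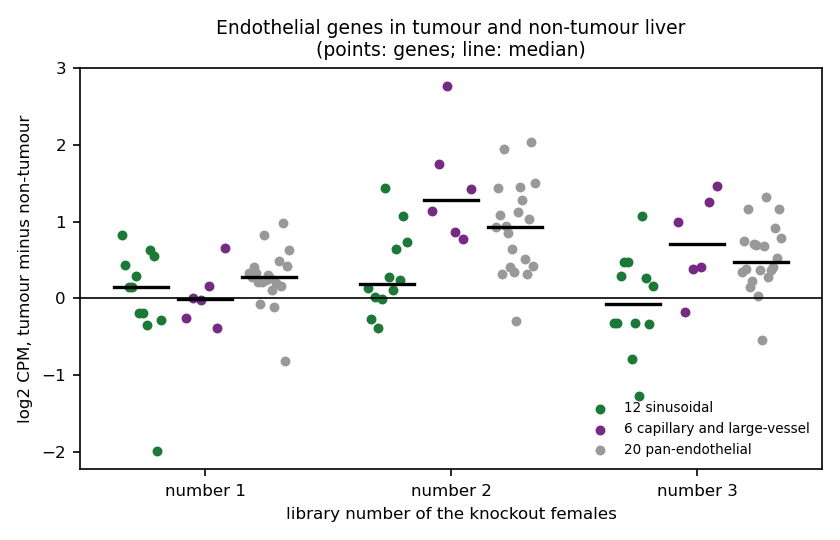
Difference in log2 CPM between tumour and non-tumour liver of knockout females (y axis) for libraries of equal number (x axis); each point is a gene, coloured by list, and lines are medians. The capillary and large-vessel medians were −0.003, 1.29 and 0.71 in numbers 1, 2 and 3, and the sinusoidal medians 0.15, 0.19 and −0.08.

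In males, endothelial genes were lower in the knockout. Of the 38 genes 13 fell in knockout males relative to wild-type males and 0 rose, in all 3 lists (edgeR). This is 34.2% of the genes lower, where 6.32% of all genes were called lower, 14.3% higher and 20.6% in either direction. Knockout males lay wholly below wild-type males for 17 of the 38 genes and wholly above for 0, where 12.2% of all genes lay wholly below and 23.1% wholly above. The 13 called genes were Stab1, Clec4g, Ehd3 and Bmp2 of the sinusoidal list, Vwf of the capillary and large-vessel list, and Tie1, Flt4, Robo4, Eng, Pecam1, Klf2, Egfl7 and Dll4 of the pan-endothelial list. The median log2 fold change was −0.91 for sinusoidal, −1.15 for capillary and large-vessel and −0.82 for pan-endothelial genes, against 0.11 for all genes. With RLE or upper-quartile scaling the median of all genes was 0.00, a shift of −0.11 relative to TMM, and under RLE the list medians were −1.04 for sinusoidal and −1.27 for capillary and large-vessel genes. Without wild-type male 3 the count of genes lower was 20, where 1477 of 17604 genes were called lower. DESeq2 called 20 lower, where it called 1928 of 17874 genes lower. With wild-type males 1 and 2 both left out, only wild-type male 3 remained in its group. The medians were then −0.59 for sinusoidal and −0.31 for capillary and large-vessel genes, against 0.16 for all genes.

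For the sinusoidal receptors, Stab1 had 69.2, 80.4 and 47.4 CPM in knockout males, against 265, 207 and 139 in wild-type males, with a log2 fold change of −1.63 ± 0.28 (edgeR adjusted p = 0.00111). Clec4g had 16.4, 15.1 and 16.9 CPM in knockout males, against 37.2, 45.95 and 33.4 in wild-type males, a difference of −1.27 ± 0.25 (edgeR adjusted p = 0.00328). Ehd3 had 25.1, 19.1 and 21.6 CPM in knockout males, against 33.9, 49.6 and 43.8 in wild-type males, a difference of −0.95 ± 0.23 (edgeR adjusted p = 0.0107). For all of these the groups did not overlap. Stab2 had 48.4, 42.4 and 30.6 CPM in knockout males, against 74.8, 93.2 and 49.2 in wild-type males, also without overlap, but at −0.84 ± 0.30 did not pass (edgeR adjusted p = 0.0619). Fcgr2b had 37.9, 45.2 and 25.7 CPM in knockout males, against 47.6, 58.6 and 59.9 in wild-type males. Oit3 had 6.17, 7.38 and 11.4 CPM in knockout males, against 22.1, 13.5 and 8.28 in wild-type males. Fcgr2b and Oit3 did not pass, with log2 fold changes of −0.61 ± 0.23 and −0.81 ± 0.39, and Oit3 overlapped between the groups. Lyve1 had 2.08, 1.54 and 3.505 CPM in knockout males, against 5.498, 3.15 and 2.72 in wild-type males, which overlapped.

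Among the sinusoidal signals, Bmp2 had 7.88, 10.01 and 7.92 CPM in knockout males, against 18.6, 17.2 and 12.8 in wild-type males and fell (log2 fold change −0.91 ± 0.26, edgeR adjusted p = 0.0212). Wnt2 had 1.12, 0.365 and 1.87 CPM in knockout males, against 2.07, 8.302 and 1.77 in wild-type males. Wnt9b had 0.298, 0.512 and 1.47 CPM in knockout males, against 5.69, 1.29 and 2.57 in wild-type males. Their fold changes of −1.84 ± 0.85 (edgeR adjusted p = 0.1398) and −2.04 ± 0.76 (edgeR adjusted p = 0.0714) were the lowest of the 38, did not pass, and rested on groups that overlapped. Rspo3 had 0.744, 2.27 and 2.88 CPM in knockout males, against 5.24, 3.22 and 2.67 in wild-type males. Gata4 had 19.5, 12.6 and 17.9 CPM in knockout males, against 18.4, 9.304 and 11.3 in wild-type males, the only sinusoidal gene with a fitted value above 0, at 0.36 ± 0.33 (edgeR adjusted p = 0.465).

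Of the capillary and large-vessel genes Vwf had 2.31, 3.87 and 5.48 CPM in knockout males, against 13.5, 12.7 and 3.63 in wild-type males. Wild-type male 3 lay within the range of the knockout males, the fold change was −1.35 ± 0.44 (edgeR adjusted p = 0.0422), and with wild-type males 1 and 2 both left out it was 0.13, the opposite sign. Cldn5 had 3.94, 6.28 and 3.79 CPM in knockout males, against 16.95, 16.5 and 4.59 in wild-type males. Gpihbp1 had 7.81, 10.2 and 8.88 CPM in knockout males, against 22.8, 25.3 and 9.34 in wild-type males. In these genes too wild-type males 1 and 2 were high and wild-type male 3 was not, and the values of −1.44 ± 0.50 (edgeR adjusted p = 0.05402) and −1.09 ± 0.40 (edgeR adjusted p = 0.0637) fell short. Plvap had 20.2, 27.2 and 37.2 CPM in knockout males, against 36.9, 47.1 and 55.9 in wild-type males. Emcn had 1.19, 0.877 and 1.07 CPM in knockout males, against 2.07, 2.36 and 2.83 in wild-type males, without overlap and without passing (edgeR adjusted p = 0.203). Cd34 had 0.893, 4.02 and 1.19 CPM in knockout males, against 2.33, 0.573 and 3.08 in wild-type males, with a log2 fold change of 0.01 ± 0.71.

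Among the pan-endothelial receptors 4 of 9 fell in knockout males. Robo4 had 24.8, 19.9 and 11.9 CPM in knockout males, against 50.8, 53.97 and 26.2 in wild-type males (−1.21 ± 0.30, edgeR adjusted p = 0.0113). Flt4 had 14.6, 14.1 and 10.6 CPM in knockout males, against 40.2, 23.3 and 22.3 in wild-type males (−1.12 ± 0.27, edgeR adjusted p = 0.00912). Tie1 had 12.3, 14.4 and 7.92 CPM in knockout males, against 20.6, 30.8 and 20.9 in wild-type males (−1.06 ± 0.34, edgeR adjusted p = 0.0364). No knockout male reached the lowest wild-type male for these receptors. Eng had 85.8, 89.8 and 63.2 CPM in knockout males, against 180.5, 144 and 118 in wild-type males, a log2 fold change of −0.89 ± 0.28 (edgeR adjusted p = 0.0336). Kdr had 15.6, 16.8 and 10.5 CPM in knockout males, against 11, 19.4 and 7.01 in wild-type males, with no such separation and a fold change of 0.20 ± 0.34 (edgeR adjusted p = 0.715). Flt1 lay without overlap at −1.03 ± 0.35 just short of the threshold (edgeR adjusted p = 0.0504), and Tek, Ptprb and Ramp2 had values of −0.45, −0.33 and 0.01.

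Klf2 had 12.1, 13.4 and 13.1 CPM in knockout males, against 29.6, 41.7 and 51.8 in wild-type males, with a log2 fold change of −1.67 ± 0.23 (edgeR adjusted p = 0.000279), the smallest p of the 38 genes in males. Egfl7 had 33.7, 33.5 and 38.3 CPM in knockout males, against 109, 123 and 65.2 in wild-type males (−1.49 ± 0.26, edgeR adjusted p = 0.00122). Dll4 had 4.98, 4.17 and 3.28 CPM in knockout males, against 10.6, 8.52 and 8.88 in wild-type males (−1.17 ± 0.30, edgeR adjusted p = 0.0121). Wild-type males were above knockout males in every library for all of these. Pecam1 had 11.4, 8.26 and 7.41 CPM in knockout males, against 21.9, 16.8 and 22.5 in wild-type males and fell (−1.18 ± 0.30, edgeR adjusted p = 0.01303). Cdh5 had 11.5, 12.6 and 10.6 CPM in knockout males, against 13.9, 16.7 and 9.18 in wild-type males. Esam had 15.5, 15.4 and 16.1 CPM in knockout males, against 16.04, 11.5 and 13.1 in wild-type males. Cdh5 and Esam overlapped between the groups, with fold changes of −0.20 ± 0.32 and 0.21 ± 0.28. Of the 13 falls, those of Stab1, Ehd3 and Klf2 passed under all 15 alternatives run.

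**Figure D4:**
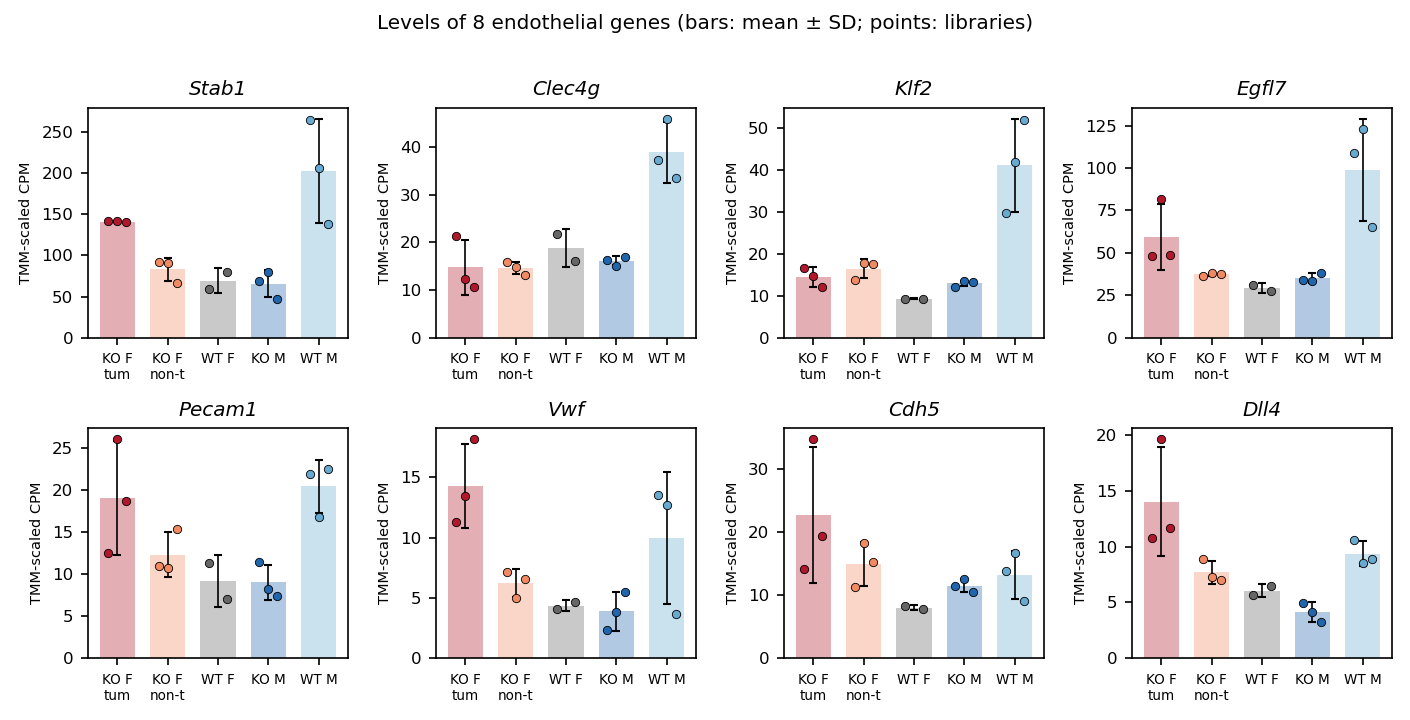
TMM-scaled CPM of 8 endothelial genes in each library (points), with the mean (bar) and SD (error bar) of each group, for knockout female tumours, knockout female non-tumour liver, wild-type females, knockout males and wild-type males. Stab1, Clec4g, Klf2 and Egfl7 have their highest mean in wild-type males, and Vwf, Cdh5 and Dll4 in tumours.

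Markers of other cells also differed between the male groups, where 14.3% of all genes were called higher and 6.32% lower in knockout males. Of 4 red cell markers Hba-a1 and Hba-a2 were lower and Alas2 higher in knockout males, with sums of 111 to 171 CPM in knockout males, against 111 to 411 in wild-type males. Platelet markers summed to 5.54 to 13.5 CPM in knockout males, against 19.4 to 22.6 in wild-type males, with 1 of 4 (Itga2b) called lower. Macrophage markers summed to 129 to 280 CPM in knockout males, against 105 to 197 in wild-type males, with 2 of 7 (Vsig4 and Cd5l) called higher. Hepatocyte markers summed to 51090 to 65620 CPM in knockout males, against 24140 to 51790 in wild-type males, with 0 of 6 called. B cell markers summed to 699 CPM in wild-type male 3 but to 8.73 and 5.44 CPM in wild-type males 1 and 2, against 12.4 to 107 CPM in knockout males, with 0 of 4 called. Their part in the endothelial values was not tested.

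The effect of the knockout differed between the sexes for 5 of the 38 genes, Stab1, Pecam1, Klf2, Egfl7 and Dll4, all with a more positive fitted effect in non-tumour liver of females than in males (edgeR's test of the difference). This is 13.2%, where 2.2% of all genes were called in that direction, 8.68% in the other and 10.9% in either (393 higher and 1552 lower, or 608 and 1254 with upper-quartile scaling). None of the 5 was called in non-tumour liver against wild-type females, and all 5 were called lower in knockout males. Klf2 had the largest called difference, 2.498 ± 0.35 (edgeR adjusted p = 0.000808), made of 0.83 ± 0.26 in females and −1.67 ± 0.23 in males. The differences were 1.89 ± 0.41 for Stab1 (edgeR adjusted p = 0.0101), 1.84 ± 0.39 for Egfl7 (edgeR adjusted p = 0.008197), 1.61 ± 0.46 for Pecam1 (edgeR adjusted p = 0.0358) and 1.51 ± 0.44 for Dll4 (edgeR adjusted p = 0.0404). Of the sinusoidal genes only Stab1 passed, although 11 of 12 had a value above 0, with a median of 0.81, against 1.68 for capillary and large-vessel genes and −0.07 for all genes. The block on the replicate number left 3 calls and lost Pecam1 (1.64, edgeR adjusted p = 0.0535) and Dll4 (1.47, edgeR adjusted p = 0.0635). The count was 2 when wild-type female 3 was left out, 3 when wild-type female 2, knockout male 2 or knockout male 3 was, and 13 when wild-type male 3 was.

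Wild-type males also differed from wild-type females: 8 of the 38 genes were higher in wild-type males and 0 lower (edgeR), which is 21.1%, where 7.03% of all genes were called higher, 16.1% lower and 23.1% in either direction. Wild-type males lay wholly above wild-type females for 23 of the 38 genes and wholly below for 0, where 17.5% of all genes lay wholly above and 31.5% wholly below. The 8 called genes were Stab1, Clec4g and Wnt9b of the sinusoidal list and Flt4, Robo4, Pecam1, Klf2 and Egfl7 of the pan-endothelial list. The median log2 fold change was 0.68 for sinusoidal, 1.04 for capillary and large-vessel and 0.82 for pan-endothelial genes, against −0.12 for all genes, or −0.01 for all genes with RLE scaling. Klf2 averaged 41.0 ± 11.1 CPM in wild-type males (SD, n = 3) and 9.23 ± 0.09 CPM in wild-type females (SD, n = 2), a log2 fold change of 2.15 ± 0.27 (edgeR adjusted p = 0.000133). Egfl7 averaged 99.0 ± 30.1 CPM in wild-type males and 29.2 ± 2.80 CPM in wild-type females (1.76 ± 0.30, edgeR adjusted p = 0.00111). Stab1 averaged 203 ± 63.3 CPM in wild-type males and 69.5 ± 14.8 CPM in wild-type females (1.55 ± 0.32, edgeR adjusted p = 0.00361). Knockout males, at means of 12.9 CPM for Klf2, 35.2 CPM for Egfl7 and 65.7 CPM for Stab1, lay nearer to the wild-type females than to the wild-type males. The same wild-type male libraries enter this comparison, the one within males and the difference between the sexes. Leaving out wild-type male 3 gave a count of 21, leaving out wild-type female 2 gave 4 and leaving out wild-type female 3 gave 3. With the compared groups fitted alone the count was 4, where 667 of 15988 genes were called higher. With wild-type males 1 and 2 both left out, only wild-type male 3 remained in its group. The median was then 0.65 for capillary and large-vessel genes, against −0.01 for all genes. Hba-a1, Hba-a2 and Alas2 of the 4 red cell markers were higher in wild-type males as well, with red cell sums of 111 to 411 CPM in wild-type males and 59.9 to 71.3 CPM in wild-type females, and their part was not tested.

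The balance of the lists within a library is given as a description, with no test. It was taken as the mean log2 CPM of the 12 sinusoidal genes minus that of the 6 capillary and large-vessel genes. In tumours 1, 2 and 3 it was 0.307, −0.654 and −0.401, in non-tumour liver 0.29, 0.455 and 0.354, and in wild-type females 2 and 3 it was 0.799 and 0.978. All knockout female libraries lay below both wild-type females, and tumours 2 and 3 were the only libraries of the 14 with the capillary mean above the sinusoidal mean. The parts moved unequally: the sinusoidal mean was 3.27 in tumours, 3.16 in non-tumour liver and 3.09 in wild-type females, while the capillary mean was 3.52, 2.79 and 2.20 in the same groups. Relative to the 20 pan-endothelial genes, the sinusoidal mean was −0.437, −0.925 and −0.693 in tumours, −0.214, −0.337 and −0.118 in non-tumour liver and −0.047 and −0.11 in wild-type females. The capillary mean relative to the pan-endothelial genes was −0.744, −0.271 and −0.292 in tumours, −0.504, −0.792 and −0.472 in non-tumour liver and −0.846 and −1.088 in wild-type females. In tumours the sinusoidal mean was therefore lower than in wild-type females relative to the pan-endothelial genes, but not on the CPM scale itself.

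In males the balance was 1.126, 0.49 and 1.05 in knockout males, against 0.969, 0.993 and 0.995 in wild-type males. Knockout male 2 was the lowest, and the other knockout males lay above the wild-type range. Both lists were lower in knockout males, with a sinusoidal mean of 3.07 in knockout males and 4.05 in wild-type males, and a capillary mean of 2.19 in knockout males and 3.06 in wild-type males. Relative to the pan-endothelial genes the sinusoidal mean was −0.361, −0.463 and 0.254 in knockout males and 0.241, 0.084 and 0.075 in wild-type males.

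**Figure D5:**
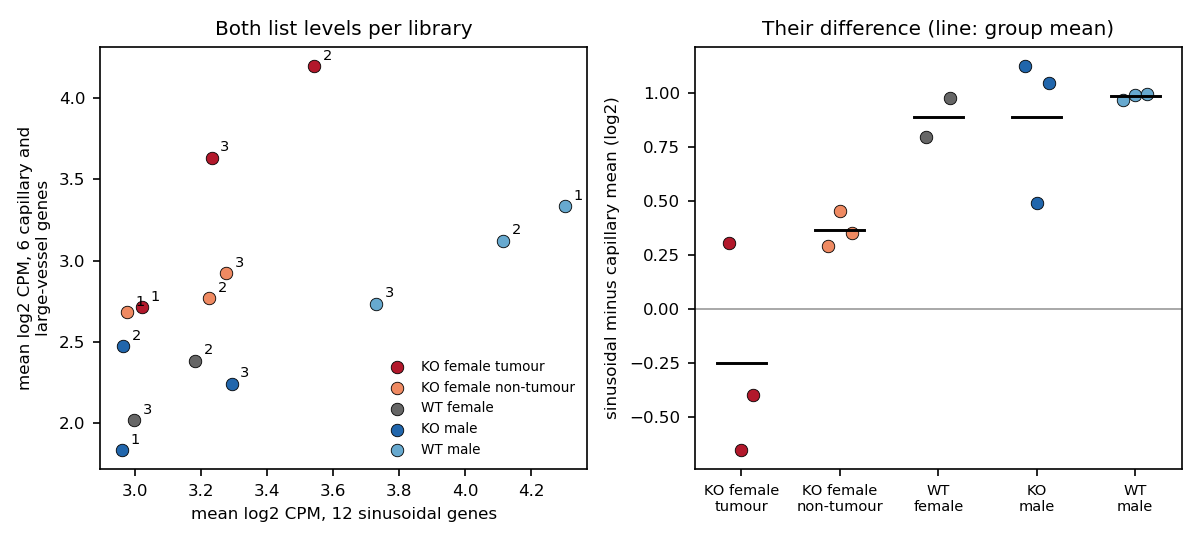
Left: mean log2 CPM of the 12 sinusoidal genes (x axis) and of the 6 capillary and large-vessel genes (y axis) in each library, numbered within its group. Right: their difference by group, with the group mean as a line. Tumours 2 and 3 lie below 0, at −0.654 and −0.401, non-tumour liver at 0.29 to 0.455 and wild-type females at 0.799 and 0.978.

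Genes that act with the endothelium were read from further lists, each to be set beside the calls over all genes. Those were 3.94% higher and 5.67% lower in tumours, and 1.9% higher and 2.26% lower in non-tumour liver, both relative to wild-type females, and 14.3% higher and 6.32% lower in knockout males. Of 14 VEGF and angiopoietin ligands and co-receptors 2 fell in tumours and 2 in non-tumour liver relative to wild-type females, and 0 rose. Vegfa, the main endothelial growth factor, had 223, 208 and 274 CPM in tumours, 223, 350.2 and 268 in non-tumour liver, and 580.4 and 819.9 in wild-type females, with log2 fold changes over wild type of −1.57 ± 0.30 in tumours (edgeR adjusted p = 0.00631) and −1.32 ± 0.30 in non-tumour liver (edgeR adjusted p = 0.0276). Nrp2, a VEGF-C co-receptor, had 7.67, 10.04 and 9.63 CPM in tumours, 9.23, 9.85 and 8.05 in non-tumour liver, and 28.2 and 26.2 in wild-type females. All knockout female libraries were below both wild-type females for these genes. In males Vegfa had 289, 302 and 237 CPM in knockout males, against 71.3, 119.6 and 104 in wild-type males, a rise of 1.49 ± 0.28 (edgeR adjusted p = 0.00219), and the effect differed between the sexes by −2.81 ± 0.41 (edgeR adjusted p = 0.00111). Nrp1, the VEGF-A co-receptor, had 40.99, 67.5 and 30.8 CPM in knockout males, against 211, 159.5 and 139.6 in wild-type males and fell (−1.87 ± 0.39, edgeR adjusted p = 0.004202). Of 12 Notch pathway genes 0 passed in female tumours or non-tumour liver, and 1, Notch1, rose in knockout males, where 14.3% of all genes rose (1.20 ± 0.37, edgeR adjusted p = 0.0347).

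In the lists of Wnt and BMP pathway genes, 5 of 13 Wnt pathway and target genes fell in tumours relative to wild-type females (Axin2, Tbx3, Rnf43, Notum and Lgr4) and 0 rose, with a list median of −0.89, where 5.67% of all genes were lower. A link to the sinusoidal Wnt and BMP ligands was not tested. Tbx3, a pericentral transcription factor, had 31.7, 5.69 and 11.7 CPM in tumours, 27.2, 21.3 and 16.4 in non-tumour liver, and 89.6 and 72.7 in wild-type females. Axin2, a feedback inhibitor of Wnt signalling, had 15.2, 6.45 and 5.42 CPM in tumours, 11.8, 9.26 and 8.998 in non-tumour liver, and 19.2 and 27.5 in wild-type females. The tumour fold changes were −2.31 ± 0.49 (edgeR adjusted p = 0.0118) and −1.37 ± 0.40 (edgeR adjusted p = 0.04298), and Tbx3 also fell in non-tumour liver (−1.91 ± 0.48, edgeR adjusted p = 0.0434). In knockout males Lgr4, an R-spondin receptor, rose (1.58 ± 0.28, edgeR adjusted p = 0.001603). Rspo1, an R-spondin, was called lower, with no counts in knockout males and 1.75, 0.716 and 0.858 CPM in wild-type males. Of 14 BMP and iron genes 3 fell in tumours, namely Id2, a BMP target (−1.004 ± 0.26), Smad7, an inhibitor of the pathway (−1.23 ± 0.35), and Hamp2, a hepcidin gene (−3.91 ± 0.91), with edgeR adjusted p of 0.0276, 0.0396 and 0.0228. In knockout males 2 of the 14 rose, where 14.3% of all genes were called higher, namely Bmp6, the main iron-sensing ligand of the sinusoid (1.93 ± 0.55, edgeR adjusted p = 0.0224), and Hjv, a BMP co-receptor (1.005 ± 0.28, edgeR adjusted p = 0.0206).

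Of 11 basement membrane genes 4 rose in tumours relative to wild-type females and 0 fell, with a median of 1.18, where 3.94% of all genes were higher. The collagen IV chain gene Col4a1 had 44.4, 105 and 65.5 CPM in tumours, 43.5, 33.9 and 16.9 in non-tumour liver, and 19.1 and 11.95 in wild-type females, and its partner Col4a2 had 22.5, 80.6 and 58 CPM in tumours, 16.95, 21.8 and 17.6 in non-tumour liver, and 12.4 and 8.29 in wild-type females. Their fold changes were 2.21 ± 0.51 (edgeR adjusted p = 0.0177) and 2.38 ± 0.50 (edgeR adjusted p = 0.0111). Lama5, a laminin chain (2.34 ± 0.47), and Sparc, a matrix glycoprotein (2.41 ± 0.59), rose as well (edgeR adjusted p of 0.00879 and 0.0234). Stellate cells also make several of these proteins. In knockout males 2 of the 11 fell, Lamb2, a laminin chain (−0.997 ± 0.32), and Nid2, a nidogen (−1.89 ± 0.41), with edgeR adjusted p of 0.0406 and 0.00553. Stellate cell markers summed to 164 to 260.1 CPM in tumours and 148 to 205.0 CPM in wild-type females, and to 125 to 225 CPM in knockout males, against 204 to 255 in wild-type males. Their part was not tested.

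Further endothelial genes were read from 2 more lists. Of 15 other sinusoidal genes 14 were tested, and 0 passed in female tumours or non-tumour liver in edgeR, with a median of 0.46 in tumours over wild-type females. In knockout males 2 of them fell, Maf, a transcription factor of the sinusoid and of macrophages (−0.77 ± 0.20, edgeR adjusted p = 0.0144), and Tfec, a transcription factor also found in macrophages (−1.92 ± 0.55, edgeR adjusted p = 0.0227). Of 24 other genes of continuous endothelium 22 were tested, and in tumours relative to wild-type females 4 rose and 1 fell, with a median of 1.17, where 3.94% of all genes were higher and 5.67% lower. Cd93, a receptor on growing vessels (2.25 ± 0.60), Rasip1, needed for vessel lumens (1.87 ± 0.41), and Sox17, an arterial transcription factor (1.44 ± 0.39), rose with edgeR adjusted p of 0.0296, 0.0128 and 0.0337. Ly6c1, a surface protein of capillaries and monocytes, had 0.927, 14.3 and 2.08 CPM in tumours, 2.26, 0.831 and 2.31 in non-tumour liver, and 0.125 and 0 in wild-type females, too few counts in wild-type females for a fold. S1pr1, a sphingosine-1-phosphate receptor, fell (−1.58 ± 0.34, edgeR adjusted p = 0.0112). In knockout males Rasip1 fell (−1.61 ± 0.35, edgeR adjusted p = 0.00526) and Sox7, an endothelial transcription factor, was called higher (edgeR adjusted p = 0.0117). Sox7 had 3.198, 1.83 and 2.38 CPM in knockout males, against 0, 0 and 0.353 in wild-type males, too few counts in wild-type males for a fold.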

How the data were processed

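The authors aligned paired-end reads of liver RNA with HISAT2 2.0.5 to GRCm38 and counted reads per gene with featureCounts 1.5.0-p3, per the submitters' processing notes; annotation release and strand setting are not given in the sources used here. The deposited table holds raw counts per gene, used for every test, and the authors' FPKM values, not tested; no replicate column was left without a sample. With R 4.3.3, genes were kept by filterByExpr (17874 of 54532) and tested with edgeR 4.0.16's quasi-likelihood test (TMM, all 14 libraries in 1 fit, common biological coefficient of variation 0.4417), with Benjamini-Hochberg adjustment over all genes and calls at an adjusted p under 0.05; SEs were derived from each fold change and its F statistic, as |log2FC|/√F. List levels are mean log2 CPM with a prior count of 2. DESeq2 1.42.0, limma 3.58.1 (voom), other scalings and filters, a replicate block and leaving out libraries were alternatives. The design text states 3 mice per group, so p-values measure the spread between mice where each library is 1 animal. The fit takes all 14 libraries as independent, so tumour and non-tumour samples of 1 animal would not be treated as a pair. The replicate block gives each number 1 shared effect over all groups, so it is not a paired test. Every library is printed for called genes and for the sinusoidal and capillary lists; other lists give up to 5 called genes of smallest p. The genes and lists were chosen with earlier results of these data known. Tumour and non-tumour libraries of equal number deviated together (r = 0.472, 0.367 and 0.32 over 10229 genes), and those of unequal number had r from −0.414 to 0.0394. Knockout and wild-type males of equal number did not (0.0452, −0.246 and −0.284), but knockout male 2 and wild-type male 3 reached 0.393. Such values therefore cannot settle whether samples of equal number came from 1 animal.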

Additional observations from a re-analysis of the deposited data

Results flagged for a closer look

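The difference of the knockout effect between non-tumour liver of females and liver of males was tested in edgeR and passed for 5 of the 38 endothelial genes. On the log2 scale it was 1.89 ± 0.41 for Stab1, 1.61 ± 0.46 for Pecam1, 2.498 ± 0.35 for Klf2, 1.84 ± 0.39 for Egfl7 and 1.51 ± 0.44 for Dll4, the fitted effect being more positive in females. All 5 were called lower in knockout males, and none was called in non-tumour liver against wild-type females. Among the further lists the difference passed with a more positive effect in females for Tfec (3.03 ± 0.84) and Rasip1 (2.22 ± 0.53). It passed with a lower effect in females for Vegfa (−2.81 ± 0.41), Notch1 (−2.30 ± 0.55), Hjv (−1.41 ± 0.42) and Sox7 (−4.65 ± 1.39), and for the Wnt pathway genes Axin2 (−1.80 ± 0.54), Tbx3 (−2.54 ± 0.66), Rnf43 (−1.67 ± 0.41) and Lgr4 (−2.32 ± 0.41). Wild-type males 1 and 2 had no counts of Sox7, so its fitted value depends on the prior count and is no bound. All of these share the wild-type male and wild-type female libraries.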

How the results depend on the processing

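Over the 32 calls of single endothelial genes, 507 alternatives gave 399 with the call and direction unchanged, 107 without the call and 1 with the sign turned; 6 calls were never lost (Stab1, Ehd3 and Klf2 in males, Klf2 in the difference, Klf2 and Egfl7 between wild types). The turned value was Vwf in knockout against wild-type males, 0.13 without wild-type males 1 and 2. That alternative and the one without both knockout female libraries of number 2 were chosen after seeing the data. The cause of each change was not tested. The share of all genes called in either direction changed as well. For non-tumour liver against wild-type females it was 4.16%, and 10.9% in DESeq2, 19% in limma-voom and 6.48% with the compared groups alone. For tumours against wild-type females it was 9.61%, and 17% in DESeq2, 25.7% in limma-voom and 7.68% with the replicate block. For the difference between the sexes it was 10.9%, and 9.76% without a filter, 17% in DESeq2, 18.6% in limma-voom and 9.01% with the block. For non-tumour liver against wild-type females, 0 genes passed and DESeq2, limma-voom and the compared groups alone gave 1 each; the sinusoidal median of −0.20 was 0.020 without both libraries of number 1, and the capillary median of 0.50 was 0.68 without those of number 2. With single libraries left out these medians ran from −0.225 to 0.0919 and from 0.28 to 0.78. For tumour against non-tumour liver, no low-count filter gave 2 in place of 0. For tumours against wild-type females, 6 genes passed: DESeq2 gave 11, limma-voom 14, the replicate block 3, number 2 left out 0, and single libraries left out 0 to 8; the capillary median of 1.45 was 0.82 without number 2 and ran from 0.81 to 1.66 with single libraries left out. In males 13 passed, with 20.6% of all genes called, and DESeq2 gave 20, with 25.6% of all genes called. Single libraries left out gave 9 to 20. The sinusoidal median of −0.91 and the capillary median of −1.15 were −0.59 and −0.31 without wild-type males 1 and 2. The sinusoidal one ran from −1.20 to −0.89 with single libraries left out. For the difference between the sexes 5 passed: no filter and DESeq2 gave 8 each, limma-voom 9, the replicate block 3, single libraries left out 2 to 13; the capillary median of 1.68 was 0.99 without wild-type males 1 and 2, and the sinusoidal median of 0.81 ran from 0.74 to 1.14 with single libraries left out. Between wild-type males and females 8 passed, with 23.1% of all genes called. No filter gave 15 (16.1% of all genes), a filter of 1 CPM 13 (24.1%) and DESeq2 18 (28.6%). Limma-voom gave 13 (26.2%) and the compared groups alone 4 (11.4%). Single wild-type males left out gave 6 to 21. The capillary median of 1.04 was 0.65 without wild-type males 1 and 2. The sinusoidal median of 0.68 ran from 0.72 to 1.05 with single libraries left out. With the replicate block 0 genes passed in tumour against non-tumour liver, 13 in males and 6 between wild types. Genes near 1 CPM, such as Wnt2 and Wnt9b, rest on few counts, which limits them.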
